A study of Mus musculus with 10 samples.

Results

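RAW264.7 cells, a mouse macrophage line, that had received 32 µM of compound 1 and then LPS were compared with resting cells of the same line, which had received the solvent DMSO and no LPS. The comparison uses 4 of the 10 libraries of the series, 2 from cells at 32 µM + LPS and 2 from DMSO, and they were taken by their labels alone. It asks which genes still stood away from rest after LPS at the highest dose, which stood at the resting level and which were called with the compound and not for LPS alone. The 2 libraries of DMSO + LPS were set beside it, because they show which genes LPS moved on its own, and the 4 libraries at 10 and 3.2 µM of compound 1 + LPS, 2 for each dose, show the same genes at lower doses and entered the fit. Resting cells received 0.5% DMSO, the DMSO + LPS cells received 0.5% DMSO and LPS at 1 µg/mL, and the treated cells received compound 1 at 32, 10 or 3.2 µM and LPS at 1 µg/mL. Compound 1 is a keto fatty acid with an α,β-unsaturated carbonyl group, isolated from a marine cyanobacterial mat. The exposure to compound or solvent lasted 1 h before LPS was added, and RNA was taken at 12 h. No group analysed here received the compound without LPS, so in this comparison alone the share of the compound and that of LPS in a change cannot be told apart. All groups are of 1 cell line, and the labels number the libraries as biological replicates without saying whether they came from separate cultures, so p-values measure the spread between these libraries.

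LPS, a part of the outer membrane of Gram-negative bacteria, is sensed by macrophages through CD14 and TLR4. One branch of the signal frees NF-κB from its inhibitors and switches on cytokines, chemokines and inflammatory enzymes, and another branch leads to interferon β, which acts back on the cells through its receptor and switches on antiviral genes. Electrophilic molecules react with cysteines of KEAP1 and so release Nrf2, which drives genes for glutathione use, quinone reduction and the thioredoxin system. Activated RAW264.7 cells also slow their division, and genes of the cell cycle then fall.

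The 4 libraries held between 47162631 and 52531295 counts, and all 10 held between 45966803 and 58976377. CPM (counts scaled to a fixed library total, so that libraries of different depth can be set side by side) refers throughout to library totals scaled by edgeR's TMM method, and a level in CPM depends on transcript length, so levels are compared between libraries and not between genes. The macrophage identity of the cells was checked with 12 markers, all detected, whose summed level was 11188 to 12220 CPM in DMSO and 8028 to 8553 CPM at 32 µM + LPS. Summed markers of T cells, B cells, neutrophils, fibroblasts, epithelial and endothelial cells stayed below 1 CPM in these libraries, with 9 of these 32 genes at 0 in all of them. Summed dendritic cell markers were 2.16 and 2.34 CPM in DMSO and 7.16 and 7.54 CPM at 32 µM + LPS, led by *Zbtb46* at rest and by *Xcr1* with LPS, and their part in the results was not tested. Ribosomal RNA features took 2.83% of the counts of 32 µM + LPS replicate 2 and 0.153 to 0.333% elsewhere. In RNA from a whole culture, fewer cells of a kind and less RNA per cell cannot be told apart.

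At 32 µM + LPS the transcriptome was far from rest. Of 14172 genes tested, 1964 were called higher than DMSO (13.9%) and 1883 lower (13.3%). A gene is called where edgeR's quasi-likelihood test gave a Benjamini-Hochberg adjusted p below 0.05 and the level differed at least 1.5-fold. LPS alone gave 2072 genes higher (14.6%) and 1923 lower (13.6%) by the same test. Against DMSO + LPS, the cells at 32 µM + LPS had 180 genes higher (1.27%) and 412 lower (2.91%). These 3 contrasts share libraries, so counts across them describe the genes and were not tested against chance. The counts of calls without 32 µM + LPS replicate 2, the library rich in ribosomal RNA, were 1874 higher and 1795 lower. Without TMM scaling, on library size alone, 34.7% of 4288 calls were higher, in place of 51.1% of 3847, and the median of all genes moved from 0.02 to -0.18 on the log2 scale. An exact permutation test of 2 libraries against 2 cannot go below p = 0.333, so every adjusted p rests on the spread pooled over genes and conditions.

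**Figure D1:**
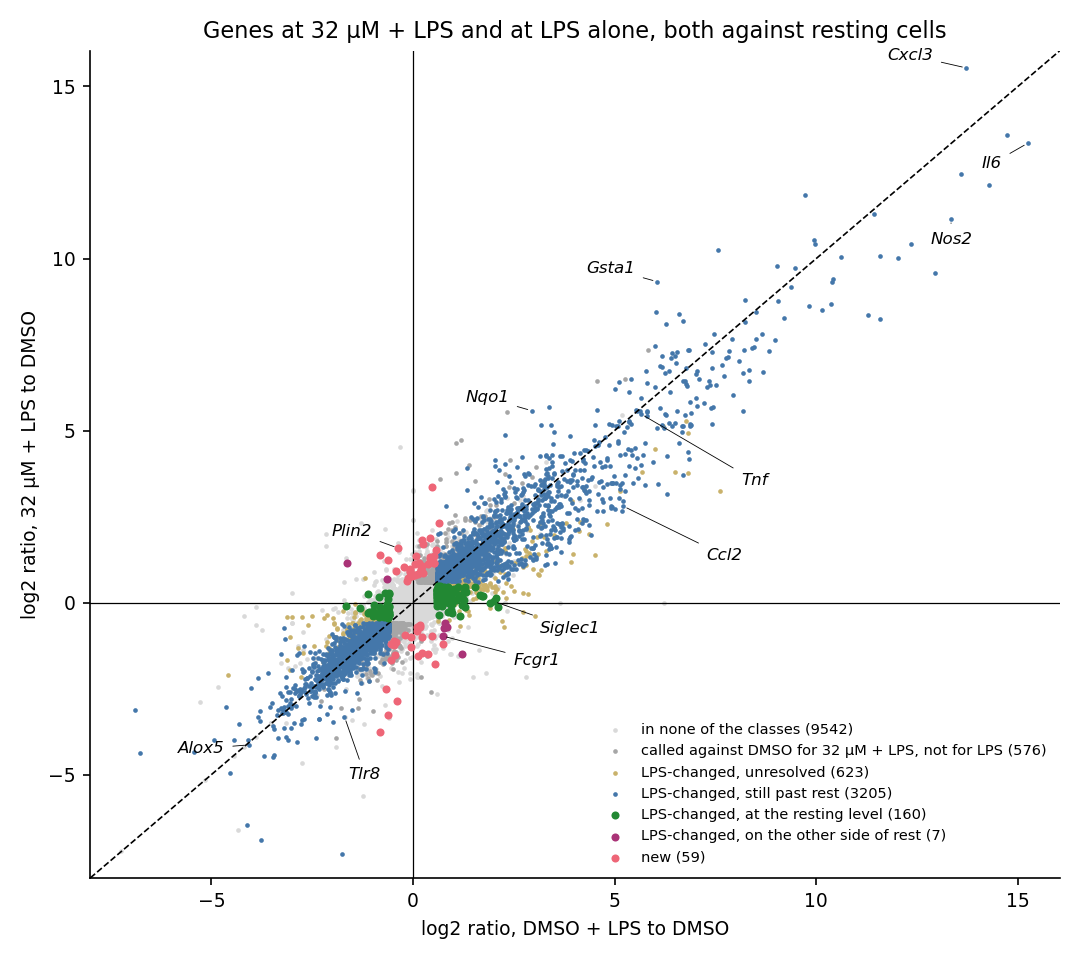
Each dot is 1 of the 14172 genes tested. The horizontal axis is the fitted log2 ratio of DMSO + LPS to DMSO, the vertical axis that of 32 µM + LPS to DMSO, the dashed line marks equal ratios, and the brackets give the number of genes in each class. Most of the 3205 blue genes, moved by LPS and still past rest, lie close to the dashed line, and *Siglec1* lies on the resting line with a log2 ratio of 0.04 at 32 µM + LPS against 2.00 for LPS alone. Ratios of genes without counts in DMSO, such as *Cxcl3* and *Il6*, depend on the prior of the fit.

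Most genes that LPS raised were still raised at 32 µM + LPS. Of the 2072, 1638 (79.1%) were called higher than DMSO in both comparisons, 111 (5.36%) were at the resting level (280 with a margin of 2-fold and 429 with any interval), 5 were called below rest and 318 were unresolved. A gene was placed at the resting level where it was not called against DMSO and the 95% interval of its ratio lay within 1.5-fold of DMSO on both sides, which held for 5384 of all genes tested (38%), most of them never moved by LPS. Among the unresolved genes, 136 had an adjusted p below 0.05 in the same direction but a change under 1.5-fold, and 181 had a higher adjusted p. The median log2 ratio to DMSO over the 2072 genes was 1.41 with LPS alone and 1.17 at 32 µM + LPS, and 1.40 and 1.15 with the 72 genes that had no count in DMSO set at the bound that 3 counts per library give. The median gene kept 88.5% of its LPS log2 ratio, with quartiles at 67.2 and 106%. Against DMSO + LPS, 359 of the genes were called lower, and 252 of these were still called above rest, while 60 were called higher still. The 359 kept a median of 51.0% of their LPS log2 ratio, but the DMSO + LPS libraries enter both the choice and the ratio.

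Cytokines and chemokines, the secreted signals of inflammation, were mostly still high at 32 µM + LPS. Of 37 tested, 31 were called higher than DMSO (13.9% of all genes), 1 was called lower and 5 were not called, with a median log2 ratio of 3.36, or 2.80 with the 5 genes without counts in DMSO at their bound. With LPS alone 35 were called higher, with a median of 5.33, or 4.51 with such genes at their bound, and the median over all genes tested was 0.02 at 32 µM + LPS. Compared with LPS alone, 24 of the 37 were called lower at 32 µM + LPS (2.91% of all genes) and 1 higher (1.27%). *Tnf*, an early cytokine of LPS activation, stood at 27.6 and 28.4 CPM in DMSO, 1395 and 1422 CPM in DMSO + LPS and 1239 and 1263 CPM at 32 µM + LPS. Both libraries with compound were thus far above both resting ones, by 44.7-fold. They lay below both libraries with LPS alone by less than 1.5-fold (edgeR adjusted p = 0.0212), so *Tnf* was not called different from LPS alone. Its log2 ratio to DMSO was 5.48 ± 0.04 (SE, n = 2 libraries per condition) with an edgeR adjusted p of 1.93e-10. *Il1b*, the precursor of interleukin 1β, had 1.16 and 1.14 CPM in DMSO, 1529 and 1541 CPM in DMSO + LPS and 479.7 and 471 CPM at 32 µM + LPS. It remained 412-fold above rest while 3.23-fold below LPS alone, and the groups did not overlap. *Ccl2*, which attracts monocytes, had 22.8 and 23.3 CPM in DMSO, 844 and 862 CPM in DMSO + LPS and 162 and 160.2 CPM at 32 µM + LPS. It kept 6.99-fold of the 37.0-fold rise. The interferon-inducible chemokine *Cxcl10* (chosen after its values were seen) had 4.76 and 4.46 CPM in DMSO, 67.7 and 69.3 CPM in DMSO + LPS and 18.2 and 16.7 CPM at 32 µM + LPS.

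Some cytokine genes had next to no reads at rest, so their fold changes are bounds or wide ratios. *Il6*, interleukin 6, had no count in either DMSO library, 94.6 and 99.0 CPM in DMSO + LPS and 23.2 and 28.9 CPM at 32 µM + LPS. The last is at least 502-fold higher than rest, taking 3 counts per DMSO library as the floor. *Il1a*, interleukin 1α, had 1 count in each DMSO library and 91.4 and 87.7 CPM at 32 µM + LPS against 402 and 393 CPM in DMSO + LPS, a ratio to rest of 5179 with a counting interval from 1433 to 42772. *Csf3*, the growth factor of granulocytes, had 4 and 1 counts in DMSO and 588 and 551 CPM at 32 µM + LPS against 1212 and 1269 CPM in DMSO + LPS. *Cxcl3*, a chemokine that attracts neutrophils, had no count in DMSO, 31.8 and 35.5 CPM in DMSO + LPS and 110.3 and 127 CPM at 32 µM + LPS, at least 2282-fold above rest, and it was the only cytokine of the list called higher than LPS alone. *Cxcl2* had 1.63 and 1.06 CPM in DMSO, 1334 and 1379 CPM in DMSO + LPS and 1792 and 1898 CPM at 32 µM + LPS, where the libraries with compound lay above those with LPS alone, but by less than 1.5-fold and with an edgeR adjusted p of 0.0634, so it was not called. *Ccl3* and *Ccl9*, chemokines of monocytes, had log2 ratios to DMSO of 5.17 and 2.31 at 32 µM + LPS and of 6.18 and 3.23 with LPS alone. *Cxcl16*, a chemokine that also serves as a scavenger receptor, was not called, with a log2 ratio of -0.39, or -0.59 and called lower on library size alone.

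The promoters of *Cxcl3* and *Il6*, the list members with the highest and the third highest fitted ratio to DMSO, are shown because both hold an NF-κB site in the 250 bases before the transcript start. The sequences are those of RefSeq on GRCm38.p6, both on the + strand, at chr5:90785851-90786100 and chr5:30012864-30013113. Capitals mark the match to the NF-κB consensus, which begins 73 bases before the start in *Cxcl3*, where 2 matches overlap, and 44 bases before it in *Il6*.
Cxcl3: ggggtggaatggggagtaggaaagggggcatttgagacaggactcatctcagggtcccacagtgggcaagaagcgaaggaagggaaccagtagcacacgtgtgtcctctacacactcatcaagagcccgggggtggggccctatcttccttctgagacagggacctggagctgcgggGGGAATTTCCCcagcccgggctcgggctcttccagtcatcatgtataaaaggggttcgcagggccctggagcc
Il6: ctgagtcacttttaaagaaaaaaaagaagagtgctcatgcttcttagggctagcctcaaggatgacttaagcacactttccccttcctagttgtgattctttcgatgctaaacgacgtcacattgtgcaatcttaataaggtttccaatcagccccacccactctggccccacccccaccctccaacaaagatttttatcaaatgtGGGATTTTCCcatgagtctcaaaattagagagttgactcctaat
Searched on both strands, such a match was in 9 of the 27 promoters of tested cytokine genes (33.3%), in 190 of the 1543 of genes still above rest (12.3%) and in 8.88% of the promoters of all genes tested (7.25% of all 32841 promoters of the table). A match is a string of letters, and binding was not measured.

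Enzymes and secreted proteins of inflammation also remained high. Of 30 tested, 27 were called higher than DMSO (13.9% of all genes), none lower, and 3 were not called, with a median log2 ratio of 4.55 (3.80 with genes without counts in DMSO at their bound) against 5.30 with LPS alone (4.19 at the bound). Compared with LPS alone, 13 of the 30 were called lower (2.91% of all genes) and 1 higher (1.27%). *Nos2*, the inducible nitric oxide synthase, had 2 counts in 1 DMSO library and none in the other, 209 and 201 CPM in DMSO + LPS and 44.7 and 45.6 CPM at 32 µM + LPS. The compound libraries were 4.55-fold below LPS alone, yet their ratio to rest was 2609, with a counting interval from 722 to 21547. *Ptgs2*, the inducible cyclooxygenase that starts prostaglandin synthesis, had 51.3 and 57.7 CPM in DMSO, 4577 and 4314 CPM in DMSO + LPS and 5327 and 6325 CPM at 32 µM + LPS. *Acod1*, which makes itaconate, had 6.60 and 6.52 CPM in DMSO, 3493 and 3437 CPM in DMSO + LPS and 2793 and 2944 CPM at 32 µM + LPS. Neither gene was called different from LPS alone, although *Acod1* lay below it without overlap, by less than 1.5-fold (edgeR adjusted p = 0.0022). *Ass1*, which makes argininosuccinate in the supply of arginine, was the one member called higher than LPS alone, with 1.45 and 1.73 CPM in DMSO, 6.13 and 6.83 CPM in DMSO + LPS and 25.8 and 24.2 CPM at 32 µM + LPS. *Serpinb2*, an inhibitor of plasminogen activators, had no count in DMSO and 12.6 and 15.1 CPM at 32 µM + LPS against 30.9 and 30.8 CPM in DMSO + LPS, at least 268-fold above rest. *Lcn2*, the siderophore-binding lipocalin, had 1 count over both DMSO libraries and a ratio to rest of 1755, with a counting interval from 315 to 69382. The exception was *Spp1*, osteopontin, with 1124 and 1119 CPM in DMSO, 2508 and 2507 CPM in DMSO + LPS and 852 and 855 CPM at 32 µM + LPS. It was placed at the resting level with a log2 ratio of -0.39 (edgeR adjusted p = 2.19e-05), both compound libraries lay below both resting ones, and on library size alone it was called lower, at -0.60.

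Most genes of the NF-κB pathway and its feedback were still above rest. Of 29 tested, 26 were called higher than DMSO (13.9% of all genes), none lower and 3 were not called, with a median log2 ratio of 1.90 at 32 µM + LPS and 1.95 with LPS alone, and the LPS-raised members kept a median of 89.8% of their LPS log2 ratio. *Nfkbia*, the inhibitor IκBα and itself an NF-κB target, had 81.5 and 76.6 CPM in DMSO, 553 and 597 CPM in DMSO + LPS and 456 and 439 CPM at 32 µM + LPS (chosen after its values were seen). *Socs3*, a brake on cytokine receptors, had 8.57 and 9.02 CPM in DMSO, 922 and 959 CPM in DMSO + LPS and 761 and 763 CPM at 32 µM + LPS. *Cish*, of the same family, had no count in DMSO and 1.08 and 0.885 CPM at 32 µM + LPS, at least 18.9-fold above rest. Members called lower than LPS alone numbered 5 of 29 (2.91% of all genes) and none was called higher (1.27%). *Dusp2*, a phosphatase of MAP kinases, was one of them, with 5.07 and 5.64 CPM in DMSO, 147 and 154 CPM in DMSO + LPS and 55.6 and 60.0 CPM at 32 µM + LPS. The others were *Cish*, *Rgs1*, *Tnfaip3*, the A20 ubiquitin editor, with log2 ratios to DMSO of 3.37 at 32 µM + LPS and 3.96 with LPS alone, and *Nfkbiz*, a nuclear IκB protein, with 4.14 and 4.82. *Peli1*, a ubiquitin ligase, and *Rgs1*, a regulator of G proteins, were not called against rest, at 0.40 and -0.46, and *Rgs1* was called lower on library size alone (-0.66) and without 32 µM + LPS replicate 2 (-0.64).

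Interferon-stimulated genes fell much of the way to rest and mostly stopped short of it. Of 42 tested, 35 were called higher than DMSO (13.9% of all genes), none lower and 7 were not called, and 39 were called below LPS alone (2.91% of all genes). Their median log2 ratio to DMSO was 1.12 at 32 µM + LPS and 2.52 with LPS alone, and the 41 raised by LPS kept a median of 51.5% of their LPS log2 ratio. *Rsad2*, viperin, had 14.3 and 16.2 CPM in DMSO, 751 and 718 CPM in DMSO + LPS and 178 and 195 CPM at 32 µM + LPS. *Irf7*, the transcription factor that amplifies interferon production, had 92.8 and 93.8 CPM in DMSO, 848 and 875 CPM in DMSO + LPS and 317 and 299 CPM at 32 µM + LPS. *Isg15*, a ubiquitin-like protein, had 16.4 and 12.8 CPM in DMSO, 492 and 538 CPM in DMSO + LPS and 157 and 130.1 CPM at 32 µM + LPS (chosen after its values were seen). In these genes the compound libraries lay between rest and LPS without overlap on either side. *Rsad2* was 12.2-fold above rest with a log2 ratio of 3.61 ± 0.08 (SE) and an edgeR adjusted p of 2.87e-08. *Slfn1* and *Ifi205* had at most 2 counts in a DMSO library, and their ratios to rest were 83.5 (counting interval from 14.5 to 3345) and 67.9 (from 22.8 to 333). *Irf1*, another interferon regulatory factor, was not raised by LPS at this time, with a log2 ratio of 0.12 for LPS and -0.29 at 32 µM + LPS.

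Of the 41 interferon-stimulated genes raised by LPS, 2 were at the resting level (5.36% of all LPS-raised genes), *Stat2* and *Eif2ak2*. *Stat2*, the transcription factor that carries the interferon signal, had 60.5 and 64.7 CPM in DMSO, 204 and 193 CPM in DMSO + LPS and 71.4 and 73.7 CPM at 32 µM + LPS. Its log2 ratio to rest was 0.21, with a 95% interval from 0.10 to 0.33 and an edgeR adjusted p of 0.0084, so it lay slightly above rest and within the 1.5-fold margin. *Eif2ak2*, the kinase PKR that halts translation on double-stranded RNA, had 104 and 111 CPM in DMSO, 243 and 229 CPM in DMSO + LPS and 115 and 136 CPM at 32 µM + LPS. Of the unresolved members, *Oas2*, *Oas3* and *Slfn8* had log2 ratios to DMSO of 0.57, 0.57 and 0.37.

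Guanylate-binding proteins and immunity-related GTPases, which attack the vacuoles of intracellular microbes, were read with the MHC class I pathway. Of 25 tested, 14 were called higher than DMSO (13.9% of all genes), 1 lower (13.3%) and 10 were not called, with a median log2 ratio of 0.77 at 32 µM + LPS and 1.65 with LPS alone. On library size alone the counts were 11 higher and 2 lower. Compared with LPS alone, 18 of the 25 were called lower (2.91% of all genes) and none higher (1.27%). *Gbp2* had 1.87 and 1.60 CPM in DMSO, 69.0 and 64.5 CPM in DMSO + LPS and 25.3 and 20.0 CPM at 32 µM + LPS. *Gbp3* had 11.6 and 10.6 CPM in DMSO, 203 and 202 CPM in DMSO + LPS and 74.3 and 73.3 CPM at 32 µM + LPS. Both, the 2 highest ratios to DMSO of the list, were above rest without overlap. *H2-D1*, a class I heavy chain whose reads may be shared with its close relatives, had 768 and 738 CPM in DMSO, 1419.5 and 1499.8 CPM in DMSO + LPS and 1190.1 and 1131 CPM at 32 µM + LPS, a call lost on library size alone (0.42 on the log2 scale) and without DMSO replicate 2 (0.56). *B2m*, the shared light chain, was unresolved, with a log2 ratio of 0.39 against 0.78 with LPS alone. *Psmb10*, a subunit of the immunoproteasome, was at the resting level, with 39.7 and 34.3 CPM in DMSO, 82.3 and 89.2 CPM in DMSO + LPS and 38.1 and 32.9 CPM at 32 µM + LPS. *Erap1*, which trims peptides for class I molecules, was not called, at -0.48, or -0.68 and called lower on library size alone.

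Promoters of *Stat2*, at the resting level, and of *Gbp2*, still above rest, are shown because each holds an interferon-stimulated response element, the letters GAAANNGAAA on either strand. Both are RefSeq sequences of the 250 bases before the start on GRCm38.p6, + strand, at chr10:128270248-128270497 and chr3:142620413-142620662. Capitals mark the match, 222 to 213 bases before the start in *Stat2* and 59 to 50 bases before it in *Gbp2*, in both read here on the opposite strand.
Stat2: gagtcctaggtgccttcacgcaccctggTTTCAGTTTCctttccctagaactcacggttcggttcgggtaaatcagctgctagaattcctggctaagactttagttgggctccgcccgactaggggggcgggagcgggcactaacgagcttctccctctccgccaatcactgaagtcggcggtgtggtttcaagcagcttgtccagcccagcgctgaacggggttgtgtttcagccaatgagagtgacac
Gbp2: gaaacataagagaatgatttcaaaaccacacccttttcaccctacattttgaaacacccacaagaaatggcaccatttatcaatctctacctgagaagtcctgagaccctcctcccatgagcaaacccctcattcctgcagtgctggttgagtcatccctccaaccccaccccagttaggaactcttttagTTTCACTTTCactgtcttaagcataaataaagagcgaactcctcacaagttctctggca
The element was in 15 of the 39 promoters of the tested interferon-stimulated genes (38.5%), in 78 of the 1543 of genes still above rest (5.06%), in 10 of the 112 of LPS-raised genes at the resting level (8.93%) and in 2.82% of the promoters of all genes tested (2.98% of all promoters of the table). A match alone therefore stood in genes of both classes.

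**Figure D2:**
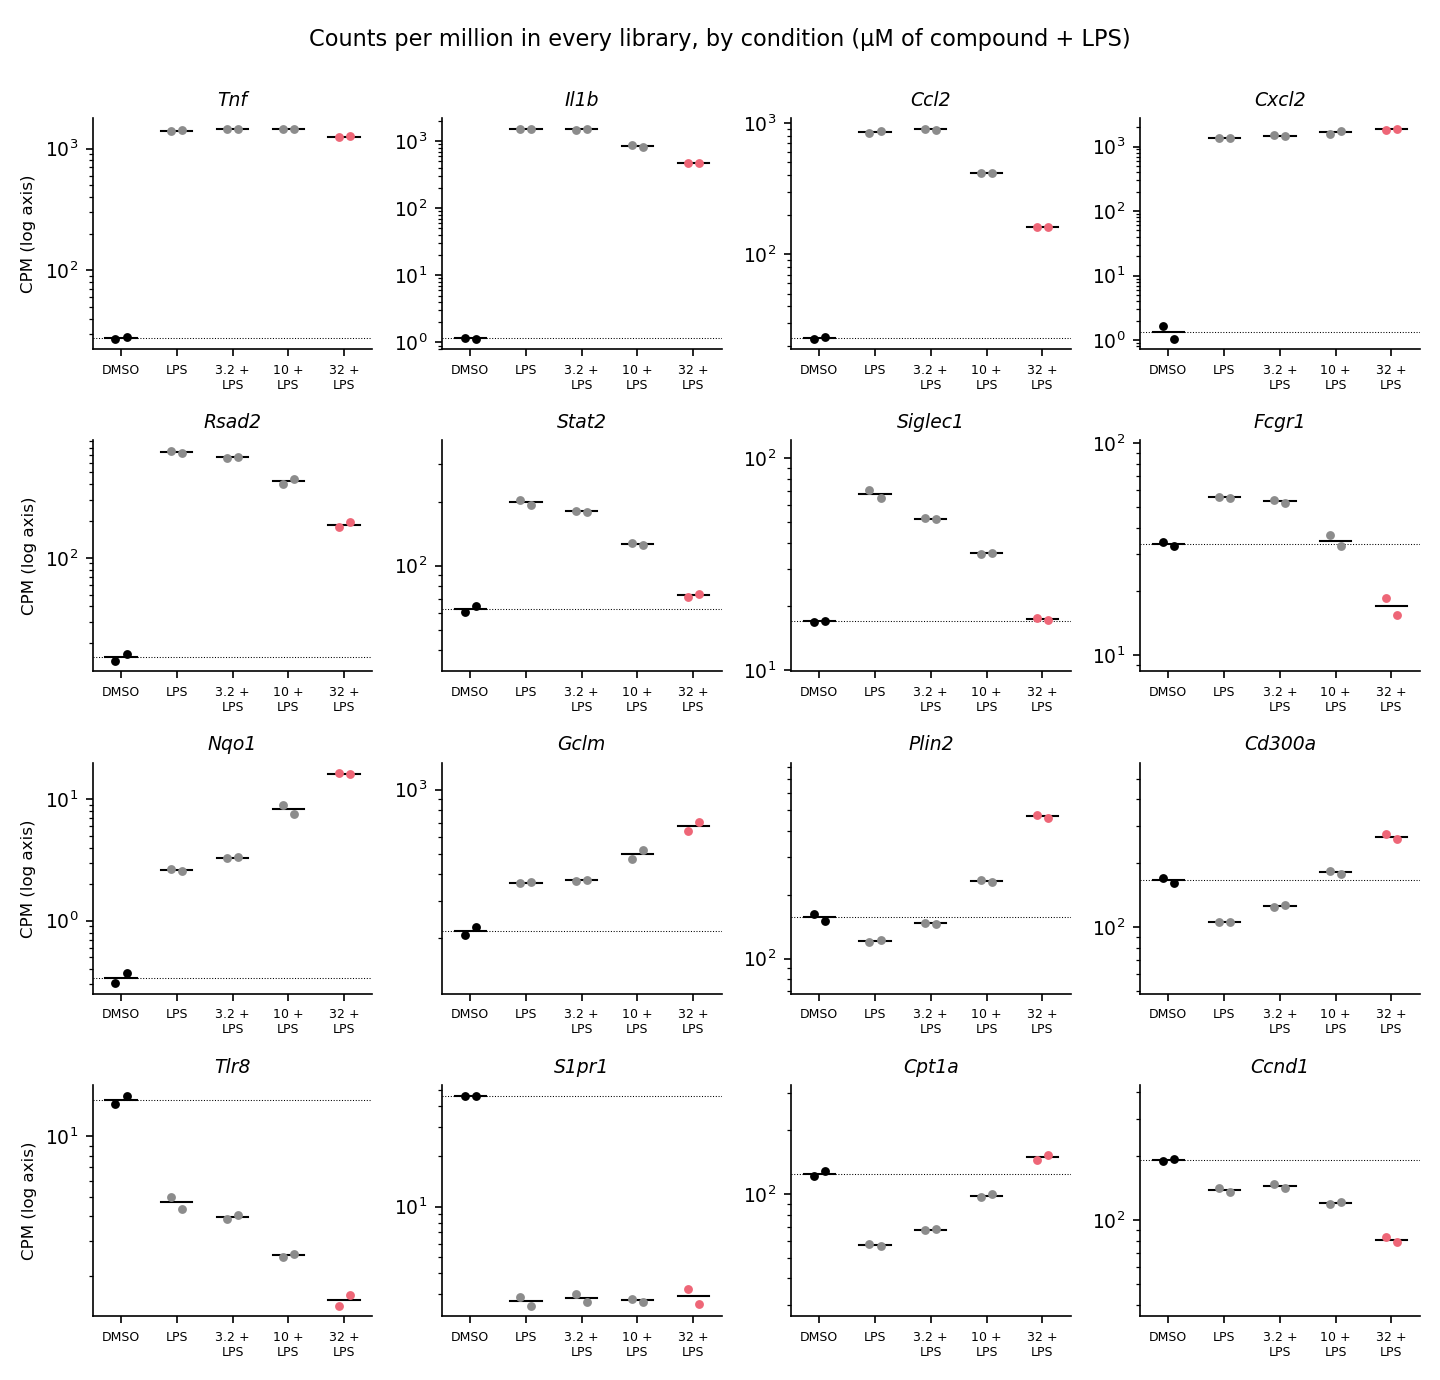
Levels of 16 genes in every library, in CPM on log axes with a scale of their own for each gene. Dots are libraries, 2 per condition, short lines are means, the dotted line is the DMSO mean and red marks 32 µM + LPS. *Tnf*, *Il1b*, *Ccl2*, *Cxcl2* and *Rsad2* at 32 µM + LPS lie far above the dotted line, *Siglec1* lies on it (17.6 and 17.3 against 16.9 and 17.1 CPM), and *Fcgr1* and *Ccnd1* lie below it.

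Most surface receptors and costimulatory molecules were called higher than at rest. Of 36 tested, 22 were called higher than DMSO, 6 lower and 8 were not called, beside 13.9% higher and 13.3% lower over all genes, with a median log2 ratio of 1.09 at 32 µM + LPS and 1.33 with LPS alone. Compared with LPS alone, 14 of the 36 were called lower (2.91% of all genes) and 1 higher (1.27%). *Cd40*, the costimulatory receptor for CD40 ligand, had 0.952 and 0.916 CPM in DMSO, 144 and 148 CPM in DMSO + LPS and 75.6 and 69.0 CPM at 32 µM + LPS. *Tnfrsf1b*, TNF receptor 2, had 65.7 and 57.7 CPM in DMSO, 2078 and 2071 CPM in DMSO + LPS and 1548 and 1499 CPM at 32 µM + LPS. *Cd14*, the LPS co-receptor, had 1148 and 1129 CPM in DMSO, 3260.0 and 3361 CPM in DMSO + LPS and 2551 and 2545 CPM at 32 µM + LPS. *Cd40* was called 2.02-fold below LPS alone, and *Tnfrsf1b* and *Cd14* lay below it by less than 1.5-fold. *Fpr2*, a formyl peptide receptor, had no count in DMSO and 0.204 and 0.310 CPM at 32 µM + LPS, at least 4.95-fold above rest. Of the 29 LPS-raised members, 6 were at the resting level (5.36% of all LPS-raised genes), the receptors *Tlr2*, *Tlr3*, *Fcgr4*, *Clec7a* and *Msr1* and the signaling adaptor *Myd88*. *Tlr3*, the endosomal sensor of double-stranded RNA, had 18.9 and 21.3 CPM in DMSO, 50.8 and 47.8 CPM in DMSO + LPS and 16.9 and 20.2 CPM at 32 µM + LPS, so that the compound and resting libraries overlapped. The Fc receptor *Fcgr4* and the β-glucan receptor *Clec7a* also overlapped rest, with log2 ratios of 0.00 and 0.05 (all 3 chosen after their values were seen).

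The LPS-raised genes that were both called lower than LPS alone and at the resting level numbered 55, and they had a median log2 ratio of 0.97 with LPS alone, 0.60 at 10 µM and 0.09 at 32 µM + LPS. The other 56 LPS-raised genes at the resting level were not called different from LPS alone either, so for them the 2 comparisons do not separate a return from a small change. Of all 111, 61 still had an adjusted p below 0.05 against DMSO, and of the 55 returned genes 21 did. *Siglec1*, the sialic acid receptor CD169 of macrophages (chr2:131069220-131086765 on GRCm38), had 16.9 and 17.1 CPM in DMSO, 70.9 and 64.9 CPM in DMSO + LPS and 17.6 and 17.3 CPM at 32 µM + LPS. Its 3.99-fold LPS rise left a log2 ratio to rest of 0.04 ± 0.06 (SE) and an edgeR adjusted p of 0.625. *Rnf213*, a large ubiquitin ligase active against microbes, had 246 and 281 CPM in DMSO, 1207 and 986 CPM in DMSO + LPS and 276 and 300.4 CPM at 32 µM + LPS, overlapping rest. *Mov10*, an RNA helicase with antiviral activity, had 19.9 and 20.6 CPM in DMSO, 66.7 and 68.6 CPM in DMSO + LPS and 22.2 and 24.3 CPM at 32 µM + LPS. *Peak1os*, annotated as antisense to *Peak1*, had 7.17 and 6.92 CPM in DMSO and 8.01 and 8.16 CPM at 32 µM + LPS, and the strand setting of the counting is not given in the sources used here, so its reads cannot be told apart from those of its partner. *Maf*, a transcription factor, had 0.884 and 0.898 CPM in DMSO, 3.98 and 3.77 CPM in DMSO + LPS and 0.797 and 0.840 CPM at 32 µM + LPS, and *Mrc1*, the mannose receptor, had 1.34 and 1.34 CPM in DMSO, 2.58 and 2.55 CPM in DMSO + LPS and 1.25 and 1.46 CPM at 32 µM + LPS.

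A few LPS-raised genes went through rest to the other side. The 5 called below DMSO were *Fcgr1*, *Psmb9*, *Il18*, *Gypc* and *Tex12*. *Fcgr1*, the high-affinity IgG receptor CD64, had 34.2 and 32.7 CPM in DMSO, 55.6 and 55.4 CPM in DMSO + LPS and 18.6 and 15.5 CPM at 32 µM + LPS, 1.96-fold below rest with a log2 ratio of -0.97 ± 0.09 (SE; edgeR adjusted p = 5.99e-05). *Psmb9*, an immunoproteasome subunit, had 14.9 and 12.0 CPM in DMSO, 21.5 and 24.4 CPM in DMSO + LPS and 8.83 and 7.28 CPM at 32 µM + LPS. *Il18*, the precursor of interleukin 18, had 5.76 and 5.72 CPM in DMSO, 9.74 and 10.3 CPM in DMSO + LPS and 3.60 and 3.96 CPM at 32 µM + LPS. In all 3 the groups did not overlap, but the call was lost for *Psmb9* without DMSO replicate 1 (log2 ratio -0.58) and for *Il18* without 32 µM + LPS replicate 1 (-0.54). *Gypc* and *Tex12* were below 1 CPM at rest, with 43 to 47 and 8 to 10 counts per DMSO library, and lost their calls under many settings. In the opposite direction, *Cd300a*, an inhibitory receptor for lipids on dying cells, had 171 and 162 CPM in DMSO, 105 and 106 CPM in DMSO + LPS and 274 and 259 CPM at 32 µM + LPS. Its log2 ratio to rest was 0.68 with an edgeR adjusted p of 1.12e-05, and 0.48 and not called on library size alone. The second gene of that kind, *Spdye4b*, had 22 to 23 counts per DMSO library. Leaving out any one of the 6 libraries but DMSO + LPS replicate 1 took the count below rest from 5 to 2 (without DMSO replicate 1 or 32 µM + LPS replicate 1) or 3, and leaving out any one of the 6 took the count above rest from 2 to 1.

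Genes lowered by LPS also mostly remained lowered. Of 1923, 1567 (81.5%) were still called below DMSO, 49 (2.55%) were at the resting level, 2 were above rest and 305 were unresolved, of which 172 had an adjusted p below 0.05 in the same direction and 133 a higher one. The median log2 ratio was -1.06 with LPS alone and -0.97 at 32 µM + LPS, and the median gene kept 92.1% of its LPS log2 ratio. Against LPS alone 65 of them were called higher, of which 41 were still below rest, and 19 were called lower still. *S1pr1*, a sphingosine 1-phosphate receptor, had 46.1 and 46.2 CPM in DMSO, 2.86 and 2.55 CPM in DMSO + LPS and 3.21 and 2.61 CPM at 32 µM + LPS. *Alox5*, the 5-lipoxygenase of leukotriene synthesis, had 35.8 and 36.7 CPM in DMSO, 2.08 and 2.21 CPM in DMSO + LPS and 1.72 and 2.41 CPM at 32 µM + LPS. *Cd28*, better known as a receptor of T cells, had 10.5 and 12.0 CPM in DMSO, 0.576 and 0.554 CPM in DMSO + LPS and 0.797 and 1.17 CPM at 32 µM + LPS, while T cell markers were at or near 0. These genes, with *Rnase4*, *Frmd4b* and *Fam13c* (log2 ratios -3.66, -3.65 and -3.43), were all called below rest at 32 µM + LPS, and none was called different from LPS alone, although the compound libraries lay above those with LPS alone for *Cd28* and *Fam13c* and below them for *Rnase4* and *Frmd4b* without overlap. *Cxcr4*, the receptor of CXCL12, and *Ptgs1*, the constitutive cyclooxygenase, came part of the way back (chosen after their values were seen). *Cxcr4* had 47.1 and 42.6 CPM in DMSO, 1.76 and 1.85 CPM in DMSO + LPS and 5.70 and 5.24 CPM at 32 µM + LPS. *Ptgs1* had 11.2 and 10.0 CPM in DMSO, 1.41 and 0.873 CPM in DMSO + LPS and 6.33 and 6.41 CPM at 32 µM + LPS, and its call against rest was lost without DMSO replicate 1 or 32 µM + LPS replicate 1 (log2 ratios -0.66 and -0.73).

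Genes of cell division were low throughout. All 26 genes of mitosis tested were called lower than DMSO (13.3% of all genes), with a median log2 ratio of -1.76 at 32 µM + LPS and -2.11 with LPS alone. Of the 32 genes of DNA replication tested, 29 were called lower, none higher and 3 were not called, with medians of -1.21 and -1.09. *Mki67*, a marker of cycling cells, had 358 and 436 CPM in DMSO, 62.1 and 53.0 CPM in DMSO + LPS and 61.7 and 74.3 CPM at 32 µM + LPS. *Ccna2*, cyclin A2, had 95.1 and 97.9 CPM in DMSO, 14.0 and 13.5 CPM in DMSO + LPS and 15.5 and 14.9 CPM at 32 µM + LPS. *Top2a*, which untangles DNA, had 302 and 342 CPM in DMSO, 63.7 and 58.3 CPM in DMSO + LPS and 64.3 and 72.1 CPM at 32 µM + LPS. The resting libraries were far above all others in each of them. Of the 26 mitosis genes, 5 were called higher than LPS alone (1.27% of all genes) while still below rest, *Plk1*, *Cdc20*, *Prc1*, *Nusap1* and *Ube2c*. *Plk1*, the kinase that drives entry into mitosis, had 72.3 and 73.8 CPM in DMSO, 11.9 and 12.8 CPM in DMSO + LPS and 19.6 and 19.2 CPM at 32 µM + LPS. *Cdc20*, which activates the anaphase-promoting complex, had 97.8 and 98.8 CPM in DMSO, 28.5 and 27.5 CPM in DMSO + LPS and 43.1 and 44.9 CPM at 32 µM + LPS. In DNA replication no gene was called higher than LPS alone and *Mcm6*, a subunit of the replicative helicase, was the only one called lower (2.91% of all genes), with 153 and 158 CPM in DMSO, 64.2 and 67.2 CPM in DMSO + LPS and 39.8 and 44.0 CPM at 32 µM + LPS. *Tk1* and *Ccne2*, thymidine kinase and cyclin E2, had log2 ratios of -2.70 and -2.63, and *Pcna*, the sliding clamp, was not called, at -0.15.

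The identity genes of macrophages were mostly called lower or not called against rest. Of 23 tested, 3 were called higher than DMSO, 8 lower and 12 were not called, beside 13.9 and 13.3% of all genes tested, with a median log2 ratio of -0.29 at 32 µM + LPS and -0.62 with LPS alone, where 7 were higher and 11 lower. The median was -0.14 without DMSO replicate 1, -0.17 without 32 µM + LPS replicate 2 and -0.49 on library size alone, and with a mean of at least 5 CPM 4 members were lower and the median was -0.14. *Csf1r*, the receptor for the macrophage growth factor, had 2309 and 2224 CPM in DMSO, 822 and 805 CPM in DMSO + LPS and 1095 and 1046 CPM at 32 µM + LPS. *Lyz2*, lysozyme, had 6839 and 6064 CPM in DMSO, 4092 and 4159 CPM in DMSO + LPS and 2828 and 2584 CPM at 32 µM + LPS. *Lyz2* was thus among the 19 genes that fell further below rest than with LPS alone. So was *Tlr8*, an endosomal sensor of RNA, with 14.5 and 16.0 CPM in DMSO, 5.01 and 4.36 CPM in DMSO + LPS and 1.43 and 1.61 CPM at 32 µM + LPS, 10.0-fold below rest (log2 ratio -3.32 ± 0.12, SE; edgeR adjusted p = 2.62e-07). The Fc receptor *Fcgr3*, the Cdc42 exchange factor *Fgd2* and the G protein regulator *Rgs2* (the last chosen after its values were seen) had log2 ratios to rest of -3.01, -3.39 and -2.64, against -2.32, -2.71 and -1.38 with LPS alone. *Itgax*, the integrin CD11c, was the member that rose most, with 3.43 and 3.14 CPM in DMSO, 63.4 and 58.9 CPM in DMSO + LPS and 58.5 and 59.1 CPM at 32 µM + LPS.

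Few LPS-lowered genes were back at rest. Of the 49 at the resting level, 15 were called higher than LPS alone, with a median log2 ratio of -0.97 with LPS alone, -0.38 at 10 µM and -0.11 at 32 µM + LPS, and 6 of the 15 had an adjusted p below 0.05 against DMSO. The other 34 were not called different from LPS alone, and 33 of all 49 had an adjusted p below 0.05 against DMSO. The count of 49 was 27 without DMSO replicate 2, 261 with a resting margin of 2-fold and 354 with any interval. *Cpt1a*, the gate through which fatty acids enter mitochondria, had 121 and 128 CPM in DMSO, 58.1 and 56.9 CPM in DMSO + LPS and 145 and 152 CPM at 32 µM + LPS. Both compound libraries lay above both resting ones by less than 1.5-fold (log2 ratio 0.25, 95% interval from 0.15 to 0.36). *Synpo*, an actin-associated protein, had 9.16 and 9.64 CPM in DMSO, 3.81 and 3.81 CPM in DMSO + LPS and 8.68 and 8.31 CPM at 32 µM + LPS. *Ugt1a7c*, *Pmepa1* and *Hsd3b7* had log2 ratios to rest of -0.29, -0.27 and -0.39, and *Hsd3b7* was called lower on library size alone, at -0.60.

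Most Nrf2 targets were above rest, and 19 of the 37 were called higher than LPS alone (1.27% of all genes). Of 37 tested, 26 were called higher than DMSO (13.9% of all genes), 1 lower and 10 were not called, with a median log2 ratio of 1.16 at 32 µM + LPS and 0.64 with LPS alone, and none was called lower than LPS alone. The 18 members that LPS raised held a median of 151% of their LPS log2 ratio. *Nqo1*, the quinone reductase (chr8:107388225-107403206 on GRCm38), had 0.306 and 0.370 CPM in DMSO, 2.65 and 2.58 CPM in DMSO + LPS and 16.3 and 16.1 CPM at 32 µM + LPS. The compound libraries were 47.7-fold above rest and 6.20-fold above LPS alone (log2 ratio to rest 5.58 ± 0.14, SE; edgeR adjusted p = 3.77e-08). *Gclm*, a subunit of the enzyme that begins glutathione synthesis, had 207 and 226 CPM in DMSO, 362 and 366 CPM in DMSO + LPS and 637 and 705 CPM at 32 µM + LPS. *Hmox1*, heme oxygenase 1, had 521 and 499.8 CPM in DMSO, 1241 and 1263 CPM in DMSO + LPS and 1735 and 1629 CPM at 32 µM + LPS. It lay above LPS alone by less than 1.5-fold (edgeR adjusted p = 0.00203), so it was not called against LPS alone. Members already raised by LPS that stood higher still with the compound included *Prdx1*, *Srxn1* and *Akr1b8* (chosen after their values were seen). *Prdx1*, a peroxidase of the thioredoxin system, had 1149 and 1050.0 CPM in DMSO, 4652 and 4748 CPM in DMSO + LPS and 9648 and 9176 CPM at 32 µM + LPS. *Srxn1*, which repairs overoxidized peroxiredoxins, had 144 and 141 CPM in DMSO, 704 and 693 CPM in DMSO + LPS and 1189 and 1191 CPM at 32 µM + LPS. *Akr1b8*, an aldo-keto reductase, had log2 ratios to rest of 2.77 at 32 µM + LPS and 1.60 with LPS alone.

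Of the 4 glutathione S-transferases of the alpha class in the list, which join glutathione to reactive molecules, *Gsta1*, *Gsta2* and *Gsta3* were scarce at rest and called higher, and *Gsta4* was not called, with 0.0850 and 0.0176 CPM in DMSO and 0.245 and 0.287 CPM at 32 µM + LPS. *Gsta1* had 1 count over both DMSO libraries, 0.646 and 0.830 CPM in DMSO + LPS and 7.07 and 7.25 CPM at 32 µM + LPS, a ratio to rest of 827 with a counting interval from 148 to 32727. *Gsta2*, its near-identical neighbor in sequence, had 0.119 and 0.0176 CPM in DMSO and 3.21 and 4.20 CPM at 32 µM + LPS, and reads of these copies may be split between them. *Gsta3* had 0.289 and 0.352 CPM in DMSO, 0.576 and 0.298 CPM in DMSO + LPS and 3.66 and 2.94 CPM at 32 µM + LPS. The abundant ferritin chains *Fth1* and *Ftl1*, which store iron, rose by less, with log2 ratios to rest of 0.81 and 0.82. *Gclc*, *Gstm1* and *Taldo1* were called higher than LPS alone but not than rest, with log2 ratios to rest of 0.48, 0.40 and 0.53 and to LPS of 0.98, 0.84 and 0.80. *Mgst2*, a microsomal glutathione transferase that LPS lowered, was at the resting level, at 0.28. *Ephx1*, epoxide hydrolase 1, was the member called lower, at -0.65, and that call was lost without 32 µM + LPS replicate 2 (-0.52).

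Promoters of *Gclm*, raised by LPS and further at 32 µM + LPS, and of *Gsta3*, called higher at 32 µM + LPS and not for LPS alone, are shown because each holds the core of an antioxidant response element, TGACNNNGC on either strand. Both are RefSeq sequences of the 250 bases before the start on GRCm38.p6, + strand, at chr3:122245307-122245556 and chr1:21240335-21240584. Capitals mark the match, 134 to 126 bases before the start in *Gclm*, on the opposite strand, and 121 to 113 bases before it in *Gsta3*.
Gclm: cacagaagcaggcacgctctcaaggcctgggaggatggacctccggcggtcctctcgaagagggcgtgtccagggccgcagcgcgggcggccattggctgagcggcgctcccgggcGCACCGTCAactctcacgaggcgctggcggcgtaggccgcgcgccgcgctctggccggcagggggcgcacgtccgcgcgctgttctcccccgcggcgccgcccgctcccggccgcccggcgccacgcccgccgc
Gsta3: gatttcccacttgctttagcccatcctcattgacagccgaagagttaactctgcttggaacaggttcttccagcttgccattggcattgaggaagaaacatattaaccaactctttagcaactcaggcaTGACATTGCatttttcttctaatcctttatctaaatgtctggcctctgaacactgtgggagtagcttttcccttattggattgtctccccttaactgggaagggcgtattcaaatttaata
The core was in 9 of the 40 promoters of tested Nrf2 targets (22.5%) and in 9 of the 34 of new genes that were higher (26.5%), but also in 5 of the 22 of new genes that were lower (22.7%), and in 11.7% of the promoters of all genes tested (10.2% of all promoters of the table). The 3 motifs together were searched in promoters of 10063 of the 14172 genes tested (71%), those the table held.

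**Figure D3:**
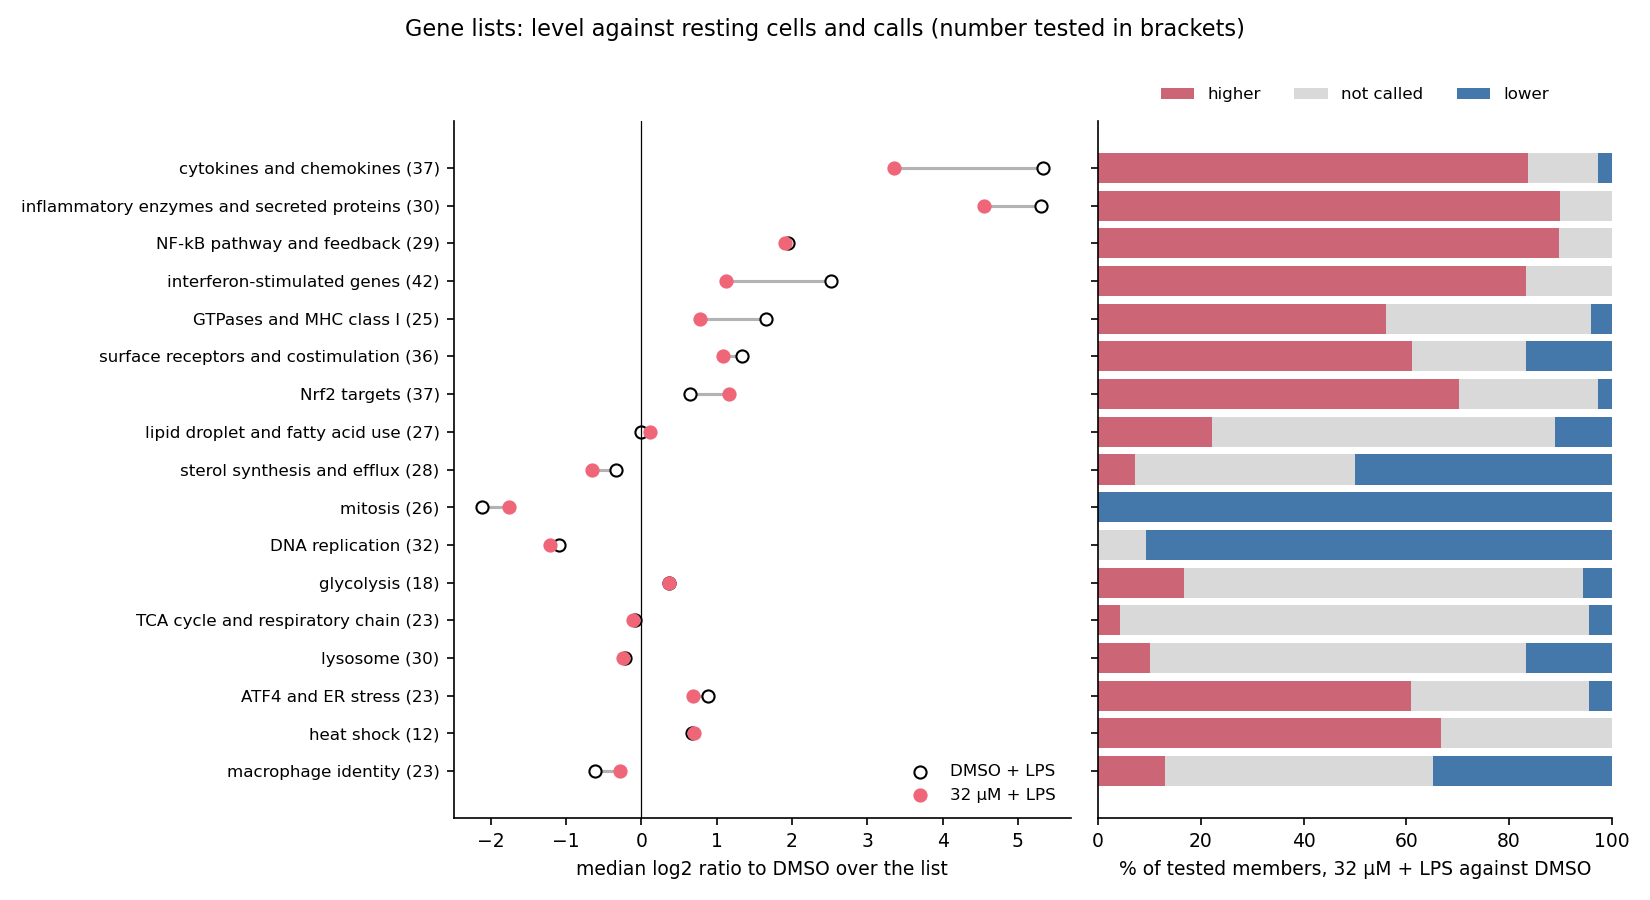
At left, the median log2 ratio to DMSO over the tested members of each of 17 gene lists, with open circles for DMSO + LPS and filled ones for 32 µM + LPS, and the number tested in brackets. At right, the percentage of those members called higher, not called or called lower at 32 µM + LPS against DMSO. The filled circle lies nearer to 0 than the open one for cytokines (3.36 against 5.33) and interferon-stimulated genes (1.12 against 2.52) and farther from 0 for Nrf2 targets (1.16 against 0.64).

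Genes new under the compound were those called in the same direction against DMSO and against DMSO + LPS but not called for LPS, so that the class rests on the 1.5-fold cutoff. There were 34 higher and 25 lower, of which 11 and 5 had an edgeR adjusted p below 0.05 for LPS with a change under 1.5-fold. In all 59 both compound libraries lay past both resting ones. The calls that chose these genes used the same libraries, so this separation follows largely from the choice. Over all genes tested it held above rest for 35.8% and below rest for 35.6%. Among the higher genes, 30 were protein coding and 24 had a mean of at least 5 CPM over the 6 libraries. *Plin2*, which coats lipid droplets (chr4:86648386-86670060 on GRCm38), had 161 and 151 CPM in DMSO, 119.8 and 122 CPM in DMSO + LPS and 476 and 459 CPM at 32 µM + LPS. It was 3.00-fold above rest and 3.87-fold above LPS alone, with LPS alone below rest by less than 1.5-fold (log2 ratio to rest 1.58 ± 0.05, SE; edgeR adjusted p = 1.10e-07). *Pcx*, pyruvate carboxylase, had 15.6 and 14.8 CPM in DMSO, 18.7 and 17.3 CPM in DMSO + LPS and 50.2 and 48.7 CPM at 32 µM + LPS. *Cacng8*, a regulatory subunit of calcium channels and glutamate receptors, had 5.20 and 4.65 CPM in DMSO, 6.69 and 6.62 CPM in DMSO + LPS and 18.4 and 17.8 CPM at 32 µM + LPS. *Gata3*, a transcription factor best known in T cells, had 4.18 and 4.03 CPM in DMSO, 5.50 and 6.81 CPM in DMSO + LPS and 11.3 and 12.3 CPM at 32 µM + LPS. The DMSO + LPS libraries lay between rest and the compound in *Pcx*, *Cacng8* and *Gata3*. *Abcb4*, a phospholipid transporter, had 68.0 and 73.8 CPM in DMSO, 102 and 99.8 CPM in DMSO + LPS and 175 and 187 CPM at 32 µM + LPS.

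Of the 37 Nrf2 targets tested, 4 were new and higher, beside 34 of all 14172 genes tested. They were *Gsta3*, *Abcc4*, *Slc48a1* and *Cbr3*. *Abcc4*, an efflux pump for organic anions, had 67.8 and 73.0 CPM in DMSO, 81.7 and 75.6 CPM in DMSO + LPS and 151 and 162 CPM at 32 µM + LPS. *Slc48a1*, a heme transporter, had 187 and 179 CPM in DMSO, 235 and 235 CPM in DMSO + LPS and 414 and 386 CPM at 32 µM + LPS. *Cbr3*, a carbonyl reductase, had a log2 ratio of 0.72, or 0.51 and no call on library size alone. *Lipa*, the acid lipase of lysosomes, was the new member of the lysosome list, with 705 and 718 CPM in DMSO, 701 and 674 CPM in DMSO + LPS and 1202 and 1226 CPM at 32 µM + LPS, and it too lost its call on library size alone (log2 ratio 0.57). *Akr1b3*, aldose reductase, and *Hvcn1*, a proton channel, were chosen after their values were seen. *Akr1b3* had 411 and 389.6 CPM in DMSO, 533 and 539 CPM in DMSO + LPS and 1012 and 1001 CPM at 32 µM + LPS, and *Hvcn1* had 1.58 and 1.99 CPM in DMSO, 1.96 and 2.24 CPM in DMSO + LPS and 6.54 and 6.02 CPM at 32 µM + LPS.

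The 25 new genes that were lower included 23 protein-coding ones and 12 with a mean of at least 5 CPM, and the count was 13 without DMSO + LPS replicate 1. *Ccnd1*, cyclin D1, which links growth signals to the cell cycle, had 190.4 and 194 CPM in DMSO, 142 and 137 CPM in DMSO + LPS and 83.0 and 78.9 CPM at 32 µM + LPS, 2.37-fold below rest (log2 ratio -1.25 ± 0.05, SE; edgeR adjusted p = 3.45e-07). *Ly6e*, a surface protein induced by interferon in many cells, had 637 and 570.1 CPM in DMSO, 583 and 578 CPM in DMSO + LPS and 326 and 279 CPM at 32 µM + LPS. *Tlr7*, an endosomal sensor of RNA beside *Tlr8*, had 106 and 120.2 CPM in DMSO, 86.1 and 76.0 CPM in DMSO + LPS and 48.1 and 55.9 CPM at 32 µM + LPS. Both compound libraries lay below all others in these genes. *Nr4a2*, an orphan nuclear receptor, had 9.55 and 11.6 CPM in DMSO, 7.11 and 7.47 CPM in DMSO + LPS and 4.49 and 4.71 CPM at 32 µM + LPS. *St3gal6*, a sialyltransferase, had 26.1 and 29.1 CPM in DMSO, 20.0 and 20.8 CPM in DMSO + LPS and 12.3 and 12.8 CPM at 32 µM + LPS. A further 290 genes higher and 286 lower were called against DMSO at 32 µM + LPS and not for LPS, but were not called between the compound and LPS, so they are not counted as new.

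Most genes of lipid droplets and fatty acid use were not called against rest. Of 27 tested, 6 were called higher, 3 lower and 18 were not called, beside 13.9% higher and 13.3% lower over all genes tested, with a median log2 ratio of 0.11, which turned to -0.09 on library size alone, where 4 were higher and 7 lower, and was 0.07 without DMSO replicate 2, where 5 were lower, and 0.20 with a mean of at least 5 CPM. Beside *Plin2* and *Cpt1a*, *Hilpda*, a lipid droplet protein that inhibits a lipase, had 6.05 and 5.81 CPM in DMSO, 14.3 and 15.1 CPM in DMSO + LPS and 19.3 and 19.0 CPM at 32 µM + LPS. *Cd36*, the fatty acid and oxidized lipoprotein receptor, had 575 and 612 CPM in DMSO, 787 and 767 CPM in DMSO + LPS and 1056 and 1197 CPM at 32 µM + LPS, called against rest and not against LPS. *Fabp4*, a fatty acid carrier, had 2.55 and 2.29 CPM in DMSO, 16.3 and 17.1 CPM in DMSO + LPS and 5.99 and 4.53 CPM at 32 µM + LPS, lower than LPS alone and still above rest. The lowest members were *Angptl4*, a lipase inhibitor, and *Acsl3*, an acyl-CoA synthetase, at -1.10 and -0.82.

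Genes of sterol synthesis and efflux were called lower than at rest more often than higher. Of 28 genes of sterol synthesis and efflux, 2 were called higher, 14 lower and 12 were not called, where 13.9% of all genes were higher and 13.3% lower, with a median log2 ratio of -0.66, against 4 higher, 6 lower and a median of -0.34 with LPS alone. No member was called higher than LPS alone, and *Insig1*, which restrains the pathway, was the one called lower (2.91% of all genes), with 110.3 and 125 CPM in DMSO, 195 and 201 CPM in DMSO + LPS and 119 and 139 CPM at 32 µM + LPS, at the resting level. *Dhcr7*, the last enzyme of one branch of cholesterol synthesis, had 85.2 and 82.9 CPM in DMSO, 42.6 and 42.2 CPM in DMSO + LPS and 33.0 and 31.4 CPM at 32 µM + LPS. *Stard4*, a carrier of cholesterol, had 139 and 152 CPM in DMSO, 69.7 and 70.4 CPM in DMSO + LPS and 54.2 and 58.0 CPM at 32 µM + LPS. In both, resting libraries were highest and compound libraries lowest. *Abca1*, which exports cholesterol, was called higher, with a log2 ratio to rest of 1.22, near that with LPS alone at 1.11.

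The remaining lists had median log2 ratios to DMSO between -0.24 and 0.70, where 13.9% of all genes tested were called higher and 13.3% lower. In glycolysis 3 of 18 were called higher, 1 lower and 14 were not called (median log2 ratio 0.36, with LPS alone 0.37, or 0.16 on library size alone), among the higher the glucose carrier *Slc2a1* with 131 and 129.6 CPM in DMSO and 404 and 362 CPM at 32 µM + LPS. In the TCA cycle and respiratory chain 1 of 23 was called higher, 1 lower and 21 were not called (median -0.11, or -0.06 without DMSO replicate 1, -0.21 without DMSO replicate 2, -0.21 without 32 µM + LPS replicate 1, -0.05 without 32 µM + LPS replicate 2 and -0.30 on library size alone). Those were *Cycs*, cytochrome c, and *Idh2*, isocitrate dehydrogenase 2, at 0.63 and -0.63, and both calls were lost when 1 library was left out, *Cycs* without DMSO replicate 2 (0.51) or 32 µM + LPS replicate 1 (0.56), and also on library size alone (0.43, with 0 members higher and 3 lower), and *Idh2* without 32 µM + LPS replicate 2 (-0.57). In the lysosome 3 of 30 were called higher, 5 lower and 22 were not called (median -0.24), with 2 higher and 10 lower on library size alone (median -0.44) and 3 higher and 2 lower without DMSO replicate 1. *Atp6v1h*, a subunit of the proton pump, and *Ctsz*, cathepsin Z, had log2 ratios of 1.21 and 0.98, and *Scarb2*, a lysosomal membrane protein, one of -0.85. In the ATF4 and ER stress list 14 of 23 were called higher and 1 lower (median 0.68, with LPS alone 0.89), with *Atf3*, a stress-induced transcription factor, at 16.7 and 15.3 CPM in DMSO and 68.8 and 68.5 CPM at 32 µM + LPS. *Ddit4*, an inhibitor of mTORC1, was the member called lower, at -0.97. In the heat shock list 8 of 12 were called higher and none lower (median 0.70, with LPS alone 0.67), and on library size alone 5 were, without *Hspa8* (0.48) and *Hsp90ab1* (0.41). *Hspa1b*, an inducible chaperone, had 21.1 and 26.2 CPM in DMSO, 51.9 and 56.0 CPM in DMSO + LPS and 53.2 and 63.4 CPM at 32 µM + LPS, and reads may be shared with its near-identical copy *Hspa1a* (log2 ratio 1.34).

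At the lower doses with LPS, the median ratio to DMSO lay between those of LPS alone and 32 µM + LPS in each class but 1, the LPS-lowered genes still below rest, where the median at 10 µM was nearest to 0. The LPS-raised genes at the resting level had median log2 ratios to DMSO of 0.75 with LPS alone, 0.69 at 3.2 µM, 0.51 at 10 µM and 0.21 at 32 µM. The new genes that were higher had medians of 0.18, 0.32, 0.69 and 1.14 in the same order, and 30 of the 34 had their 4 means in that order. The new genes that were lower had medians of -0.04, -0.19, -0.56 and -1.20, and 18 of the 25 had their means in order. By contrast the genes still above rest moved from 1.59 to 1.57, 1.55 and 1.42, and those still below rest from -1.15 to -1.14, -1.09 and -1.11. The interferon-stimulated list had a median of 2.41 at 3.2 µM and 1.98 at 10 µM, and the Nrf2 list 0.73 and 1.03. All these ratios share the DMSO libraries, and the classes were set with the LPS and 32 µM + LPS libraries, so only the ratios at the 2 lower doses were not used for them, and their libraries still entered the pooled spread.

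**Figure D4:**
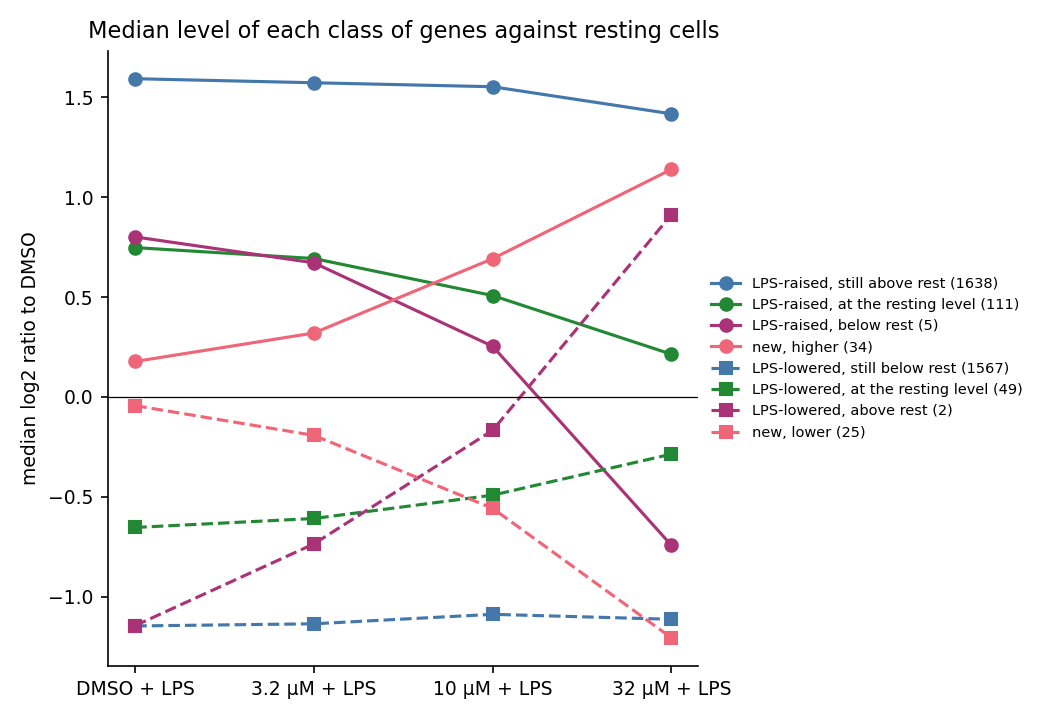
Median log2 ratio to DMSO of each class of genes, from DMSO + LPS through 3.2 and 10 µM + LPS to 32 µM + LPS, with the number of genes in brackets, solid lines for genes that LPS raised or that are new and higher, and dashed lines for the opposite. Genes still past rest run nearly level (1.59 to 1.42 and -1.15 to -1.11), and the 34 new higher genes climb from 0.18 to 1.14. The ratios at 10 and 3.2 µM were not used to set the classes, although their libraries entered the filter, the scaling and the pooled spread.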

How the data were processed

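The authors pretreated RAW264.7 cells, prepared poly(A) RNA libraries with a directional kit and sequenced paired ends of 150 bases on a NovaSeq. The deposited values are raw counts for each Ensembl gene and library, not normalized by the authors. The submitters' processing notes name Trimmomatic, FastQC, STAR, DESeq2 and mm10. Versions, the counting tool, its strand setting and its annotation are not given in the sources used here. Symbols and positions came from GENCODE M21 on GRCm38, and the 884 identifiers without a symbol held 0.0948% of the counts.

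Of 43432 genes, 14172 passed filterByExpr at a minimum count of 10 and were scaled by TMM and fitted with edgeR 4.0.16 (R 4.3.3, limma 3.58.1) in 1 fit of all 10 libraries with 1 mean per condition, leaving 5 residual degrees of freedom and a common biological coefficient of variation of 0.128. Quasi-likelihood F tests were two-sided, with Benjamini-Hochberg adjustment over all genes tested and a cutoff of 1.5-fold. At 5 CPM the smallest library held 230 counts, a counting error of 6.60%. Intervals and floors based on counts cover counting error only. A fold against a condition without counts used a floor of 3 counts per library, and a ratio against 1 to 6 counts over both libraries was given with an exact counting interval. The steps were tested on simulated data.

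The comparison, the 17 gene lists, the classes and the motifs were chosen with earlier results of these data known. Named genes were the 8 highest and 8 lowest ratios to DMSO, the 5 largest of each class and direction, 8 preset genes, and in each list the 2 highest, the 2 lowest and the 2 most abundant members, with a mean of at least 5 CPM for the ranks over all genes. Others were named where a class of a list held 5 or fewer genes, or after their values were seen. The alternatives were other scalings, filters, models and tests (DESeq2 1.42.0 among them), a 2-fold cutoff, other margins of the resting level and each library left out. Crossed replicate numbers and the fit of the 4 libraries alone are described with them, and the crossed numbers were added after seeing the data. Some genes that this rule names are not reported here.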

Additional observations from a re-analysis of the deposited data

How the results depend on the processing

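No called gene among those named turned its direction against rest under any setting run. Calls numbered 3621 in a fit of the 4 libraries alone and 3667 by DESeq2 on 10 libraries, against 3847. The counts below and above rest, carried by 5 and 2 genes, moved most often. Genes below rest numbered 3 on library size alone, without a count filter, with a mean of at least 5 CPM, by the likelihood ratio test and by DESeq2 on 10 or on 6 libraries. Genes above rest numbered 0 on library size alone and 1 without a count filter, with a mean of at least 5 CPM and by DESeq2 on 10 or on 6 libraries. Library size alone also gave 2374 LPS-lowered genes still below rest and 74 at the resting level. A mean of at least 5 CPM, which leaves fewer genes to test, gave 1254 genes called higher, 1060 still above rest and 12 new genes that were lower. A 2-fold cutoff gave 1247 higher and 998 lower, 1054 still above rest, 25 at the resting level and 1 below it, 798 still below rest, 5 at the resting level and 1 above it, and 15 and 14 new genes higher and lower. With a resting margin of 2-fold, 280 LPS-raised and 261 LPS-lowered genes were at the resting level, and with any interval 429 and 354. Another model added a score, the median centered log2 level of 271 genes with transcripts under 1000 bases. This score was 0.02 and -0.42 in DMSO and 0.14 and -0.27 at 32 µM + LPS. With it, 49 new genes were higher and 35 lower, and 141 LPS-raised and 72 LPS-lowered genes were at the resting level. New genes by the likelihood ratio test were 44 higher and 29 lower.

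Without each of the 6 libraries in turn (a condition left with a single library borrows its spread from the rest), there were 1722 to 1880 genes higher and 1702 to 1812 lower. The LPS-raised genes still above rest were 1464 to 1570, those at the resting level 86 to 103 and those below rest 2 to 4. The LPS-lowered genes still below rest were 1408 to 1519, those at the resting level 27 to 58, and 1 was above rest each time. New genes were 23 to 38 higher and 13 to 23 lower. Over all the alternatives, *Tex12*, *Gypc* and *Spdye4b*, which had few counts, lost their calls in 14 of 17, 9 of 18 and 10 of 18 settings. The part of depth in these losses was not tested.

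With the replicate number as a block, 1993 genes were called higher and 1917 lower, 3910 in all against 3847, with 3816 calls shared in direction. Of the LPS-raised genes 1663 were still above rest, 120 at the resting level and 4 below it, of the LPS-lowered 1601, 58 and 2 above it, and new genes were 37 and 28. The labels do not say that a number marks a shared batch, and the deviations of same-numbered libraries correlated at 0.104 to 0.573 in the 6 pairs of conditions without DMSO + LPS (0.534 between DMSO and 32 µM + LPS) and at -0.169 to -0.0664 in the 4 pairs with it. The block with the numbers of DMSO + LPS crossed, added after seeing the data, gave 3989 calls. In this pairing and in the numbered one, *Tex12* was the single named gene to lose its call.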
